A study of Mus musculus with 6 samples.

Results

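The abundant long non-coding RNAs Malat1, Neat1, H19, Meg3, Kcnq1ot1, Gas5, Snhg1, Snhg8, Snhg12 and Epb41l4aos were examined in adult mouse pancreatic acinar cells with and without the ubiquitin ligase gene Trip12. They were taken by symbol from a given list of 10, and all 10 were found among the 55414 gene identifiers counted in every library. Of the 10, 9 passed the filter on low counts, as did 13115 genes in all, and H19 did not. The data were 6 poly-A-selected RNA libraries, each from 1 preparation of acinar cells, which make and secrete the digestive enzymes. The 3 control preparations carried Pdx1Cre and intact Trip12 (Pdx1Cre;Trip12+/+), and the 3 knockout preparations carried the same Cre with both Trip12 alleles floxed (Pdx1Cre;Trip12fl/fl). All 6 were from untreated adults, and each number from 1 to 3 names a biological replicate. The Pdx1 promoter drives Cre in the pancreatic epithelium from its progenitors onward, so islet and duct cells of these animals can carry the deletion as well, while stromal cells and leukocytes are not its target. No age beyond adult and no way of purifying the acinar cells is stated in the sources used here, and the labels do not state that the preparations came from separate animals beyond calling them biological replicates, so p-values measure the spread between these preparations. Tumour cell lines, which the series' design also covers, were not analysed here.

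Long non-coding RNAs are transcripts that are not translated into a stable protein, and these 10 fall into 3 kinds. Malat1 and Neat1 lie beside each other in the genome and stay in the nucleus, Malat1 in the speckles that hold splicing factors and Neat1 as the scaffold of paraspeckles. H19, Meg3 and Kcnq1ot1 belong to imprinted domains, in which a gene is read from the copy of 1 parent: H19 and Meg3 from the maternal copy and Kcnq1ot1, which silences its neighbours, from the paternal copy. Gas5, Snhg1, Snhg8, Snhg12 and Epb41l4aos are host genes, whose introns hold small nucleolar RNAs (snoRNAs) that guide chemical modification of ribosomal RNA, and whose spliced remainder is short-lived. Poly-A selection recovers these RNAs unevenly: the main Malat1 transcript and the long form of Neat1 end in a triple helix instead of an added poly-A tail.

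Levels are given as normalised CPM (counts scaled to a common library size, as CPM, after correction for library composition), and differences as log2 fold changes of knockout over control. A gene was called when its p-value from edgeR's quasi-likelihood test, adjusted over all 13115 tested genes by Benjamini-Hochberg, lay under 0.05. By that rule 1 of the 9 tested RNAs was called, Meg3, which was higher in knockout, and none was called lower. Over all tested genes 0.945% were called, 0.465% as higher and 0.480% as lower. The labels do not say that same-numbered preparations were paired. Pairing was assumed because same-numbered libraries deviated together in these same data. With the replicate number as a block 3 of the 9 were called, all higher, namely Meg3, Gas5 and Snhg8. In that fit 5.99% of all tested genes were called, 3.40% as higher and 2.58% as lower. All 9 had log2 fold changes above 0, as had 52.4% of all tested genes, and their median was 0.55 against 0.022 over all tested genes. In 5 of the 9 the groups did not overlap, with every knockout library above every control library. Of all tested genes 22.9% did not overlap, and in 1568 of the 13115 the knockouts were above.

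**Figure D1:**
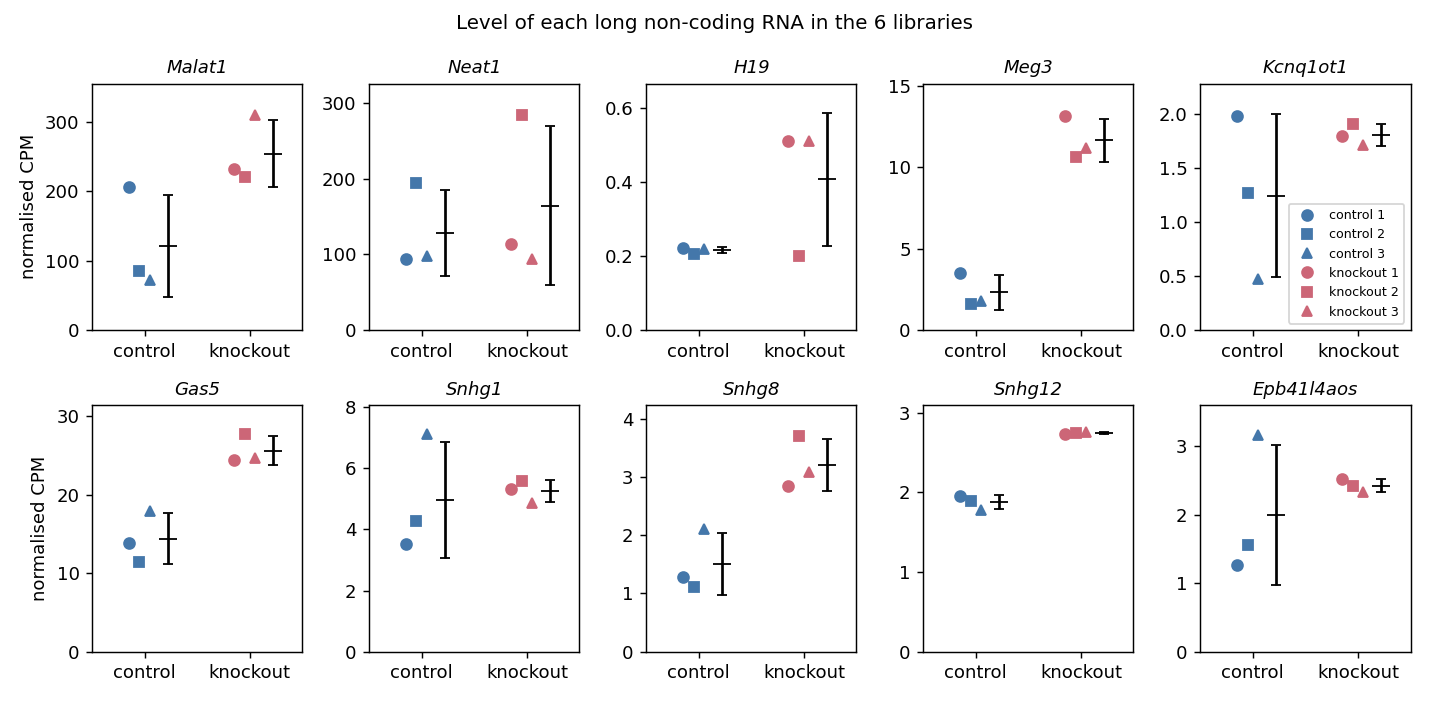
Normalised CPM of each of the 10 RNAs (vertical axes, linear and starting at 0) in the 3 control libraries (blue) and the 3 knockout libraries (red); symbols mark the replicate number, and the black mark with bars gives the mean and the SD of each group. Meg3 lies at 1.60 to 3.53 CPM in control and 10.6 to 13.2 CPM in knockout, while Neat1 is highest in replicate 2 of both groups.

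The 6 libraries held 31019500 to 34041901 gene counts each. Trip12 had a mean of 25.9 CPM ± 3.36 (SD, n = 3) in the controls and of 14.0 CPM ± 0.917 in the knockouts, a fitted log2 fold change of -0.89 (SE 0.14; edgeR's adjusted p 0.0256); counts over the whole gene do not show which exons remain. That call was lost with library totals, with a sex covariate and in 5 of the 6 fits that left out 1 library, where the adjusted p reached 0.140. Xist and Y-linked counts marked control replicates 2 and 3 as female and the other 4 libraries as male, so sex and genotype are partly confounded and control replicate 1 is the 1 male control. All 12 acinar markers were detected, and their summed level ran from 498649 to 675540 CPM in control and from 418858 to 426840 CPM in knockout. Reads outside annotated genes made up 1.80% ± 0.333 of uniquely mapped reads in control and 3.03% ± 0.309 in knockout (exact permutation test, two-sided, p = 0.1, the smallest that 3 against 3 allows). Because these are bulk preparations, fewer cells of a type and less RNA per cell cannot be told apart.

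Start regions are shown for Meg3, the RNA that was called, and for snoRNA hosts, as a description only, since no test used them. The RefSeq table used (build GRCm38.p6) held start regions for 7 of the 10 RNAs, each 250 bases before to 50 after an annotated start, and none for Neat1, H19 and Epb41l4aos. The upstream of the annotated Meg3 start regions, chr12:109540746-109541045 on the plus strand, is shown 5′ to 3′ because Meg3 had the largest fold change of the 9 tested RNAs, and the second annotated start region of Gas5, chr1:161034916-161035215 on the plus strand, because Gas5 was called with the block. Capitals mark a cAMP response element, spelled TGACGTCA, on either strand. They also mark a CCAAT box, spelled by its name, and a TATA box, for which both TATAAA and the alternating form TATATA were searched on either strand.
Meg3: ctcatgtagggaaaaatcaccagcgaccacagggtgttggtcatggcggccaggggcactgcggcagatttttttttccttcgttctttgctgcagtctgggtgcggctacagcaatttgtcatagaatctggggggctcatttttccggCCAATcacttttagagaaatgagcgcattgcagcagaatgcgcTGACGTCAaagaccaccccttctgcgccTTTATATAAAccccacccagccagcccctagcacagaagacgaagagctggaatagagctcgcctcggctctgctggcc
Gas5: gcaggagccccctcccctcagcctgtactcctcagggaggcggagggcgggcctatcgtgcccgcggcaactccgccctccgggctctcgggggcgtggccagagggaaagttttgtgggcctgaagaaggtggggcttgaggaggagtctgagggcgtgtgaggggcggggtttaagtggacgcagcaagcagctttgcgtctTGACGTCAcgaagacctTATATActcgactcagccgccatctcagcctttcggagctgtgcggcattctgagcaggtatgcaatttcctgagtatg
TGACGTCA begins 57 bases before the start in Meg3 and 46 bases before it in Gas5, and was absent from the other start regions of the 7 RNAs, the other annotated starts of Meg3 and Gas5 included. Of 27025 start regions of the same length in the table, 507 (1.88%) hold these letters on either strand. The shortened form TGACG, which the full form contains, was in 5681 of the 27025 start regions, and besides Meg3 and Gas5 it was found in those of Malat1, Snhg8, Snhg12 and Kcnq1ot1. TATAAA was in 14.2% of them, TATATA in 5.94% and CCAAT in 37.9%, and the TATA letters of Meg3 overlap each other. The motifs were chosen after the sequences had been read, and a match is a description of the letters only.

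Transcripts of the translation machinery and many snoRNA hosts begin with a run of pyrimidines (C and T), the terminal oligopyrimidine tract. The 18 bases on each side of the annotated start are shown for the 4 hosts in the table, with the run at the start in capitals and the start itself at the first base after the first 18.
Gas5, chr1:161035148-161035183, plus strand: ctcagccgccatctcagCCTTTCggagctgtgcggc
Snhg1, chr19:8723469-8723504, plus strand: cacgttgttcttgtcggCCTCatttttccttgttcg
Snhg8, chr3:123508319-123508354, minus strand: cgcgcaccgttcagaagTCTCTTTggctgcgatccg
Snhg12, chr4:132308660-132308695, plus strand: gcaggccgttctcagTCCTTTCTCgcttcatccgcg
A run was counted where it reached within 3 bases of the start. At the starts shown it was 6 bases long in Gas5, 4 in Snhg1, 7 in Snhg8 and 9 in Snhg12. It was 3 bases long at the other annotated start of Gas5. Among the RNAs that are not snoRNA hosts, it was 5 bases long at the upstream start of Meg3, longer than in Snhg1, and 2 in Malat1 and 2 in Kcnq1ot1. Over all 27025 start regions, 26.1% had a run of at least 5 bases.

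Meg3 (ENSMUSG00000021268, chromosome 12) is the maternally expressed RNA of the Dlk1-Dio3 imprinted domain and is known as a growth-restraining transcript. Control replicates 1 to 3 held 112, 39 and 49 counts of it, and knockout replicates 1 to 3 held 492, 372 and 417. Its normalised levels were 3.53, 1.60 and 1.78 CPM in the controls and 13.2, 10.6 and 11.2 CPM in the knockouts. The lowest knockout library thus lay well above the highest control, which was the male control replicate 1. The mean went from 2.30 CPM ± 1.06 (SD, n = 3) to 11.7 CPM ± 1.35, a ratio of 5.06, with a fitted log2 fold change of 2.32 (SE 0.29; edgeR's adjusted p 0.0164). With the replicate block edgeR gave 2.39 with an adjusted p of 6.47e-05, and with sex as a covariate they were 1.72 and 0.0461, a fit that rests on the 1 male control. The call was lost when control replicate 2, control replicate 3, knockout replicate 1 or knockout replicate 3 was left out, with adjusted p from 0.0613 to 0.0920 and log2 fold changes from 2.13 to 2.36.

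The rest of the same imprinted domain was examined next. Rian, the snoRNA-hosting RNA read from the maternal copy just downstream of Meg3, stood at 1.57, 1.31 and 0.509 CPM in the controls and at 5.58, 4.25 and 5.39 CPM in the knockouts. It rose as well, by a log2 fold change of 2.16 (SE 0.37; edgeR's adjusted p 0.0413, and 0.00374 with the block). Its call was lost in 4 of the 6 fits that left out 1 library, with a sex covariate (log2 fold change 1.69) and on first-strand counts (2.02). Mirg, the microRNA host at the far end of the same maternal unit, had 1, 0 and 0 counts in the controls and 17, 5 and 11 in the knockouts, too few to be tested. For each Meg3 count there were 0.446, 0.821 and 0.286 Rian counts in the controls and 0.423, 0.401 and 0.482 in the knockouts, so the knockout ratios lay within the control range. Of the genes read from the paternal copy, Dlk1, which encodes a Notch-like membrane protein, had 2, 3 and 2 counts in the controls and 4, 6 and 5 in the knockouts. Rtl1, a retrotransposon-derived gene, was at 0 in all 6 libraries, and Dio3, a thyroid hormone deiodinase, had at most 3 counts.

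Meg3 is also expressed in islet cells and in stromal cells, so the markers of other cell types are given beside it. The 12 islet markers, all detected, summed to 364 to 471 CPM in control and to 249 to 924 CPM in knockout. In knockout replicates 1 to 3 the islet sums were 924, 669 and 249 CPM, and the Meg3 levels 13.2, 10.6 and 11.2 CPM. Most of the islet sum came from Ins2, which had a mean of 250 CPM in control. The 12 stromal and endothelial markers summed to 148, 31.7 and 47.7 CPM in the controls and to 166, 42.8 and 113 CPM in the knockouts. Knockout replicate 2 lay below control replicates 1 and 3 in this sum, and its Meg3 level was 10.6 CPM. Within each group Meg3 and this sum had the same order, highest in replicate 1 and lowest in replicate 2. Leukocyte markers ran from 21.4 to 103 CPM in control and from 18.5 to 74.4 CPM in knockout, duct markers from 202 to 243 CPM and from 189 to 283 CPM, and 5 of the 6 adipocyte markers (Adipoq, Plin1, Cidec, Lep and Retn) had at most 3 counts in every library. Log2 fold changes were above 0 in 10 of 12 islet markers (median 0.56) and 11 of 12 stromal and endothelial markers (0.40). The same held for 7 of 11 tested leukocyte markers (0.63) and 5 of 8 duct markers (0.14). DESeq2 called Chga and Spp1 as higher and Krt19 and Muc1 as lower. In edgeR's test no marker of these 5 lists was called without the block. With it the calls in edgeR's test included Pcsk2, Fabp4, C1qa, C1qb, C1qc, Adgre1, Krt7, Spp1 and Epcam as higher and Krt19 and Muc1 as lower, and among the acinar markers Rbpjl was called higher and Cela2a and Ptf1a lower. The part of other cells in the Meg3 difference was not tested.

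**Figure D2:**
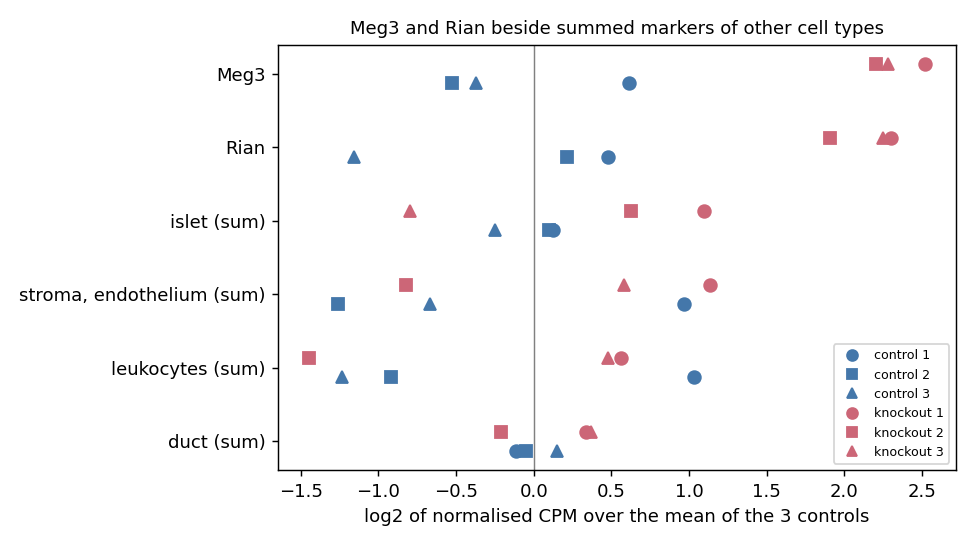
Levels of Meg3 and Rian and the summed levels of 4 marker lists in each library, as log2 of normalised CPM over the mean of the 3 controls (horizontal axis); blue is control, red is knockout, and symbols mark the replicate number. The 3 knockout libraries lie to the right of every control for Meg3 and Rian, while both groups are mixed for each of the marker sums. A mixed sum does not show that its markers were unchanged. In the duct sum the mean of Muc1 went from 100 CPM in control to 59.5 CPM in knockout. That of Spp1 went from 62.3 to 131 CPM, and neither gene's groups overlapped.

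Kcnq1ot1 (ENSMUSG00000101609, chromosome 7) runs antisense through the potassium channel gene Kcnq1. It stood at 1.98, 1.27 and 0.473 CPM in the controls and at 1.80, 1.91 and 1.72 CPM in the knockouts. The control libraries spread on both sides of the tightly grouped knockouts. The fitted log2 fold change came to 0.53 (SE 0.47; edgeR's adjusted p 0.639). Its unstranded counts leave out most of the reads that lie over its exons. Of 1061 such reads on both strands, 756 (71.3%) also overlapped a gene on the opposite strand and were counted to neither. In the GRCm38 annotation its exons share 121 bases with those of Kcnq1 and 119 to 460 bases with each of 4 small RNA models, and the library does not separate strands, so these reads cannot be assigned. When all of them were kept for Kcnq1ot1, whichever gene they came from, the levels were 6.27, 5.71 and 5.34 CPM in the controls. In the knockouts they were 5.01, 5.08 and 5.66 CPM. The groups again overlapped, and the log2 fold change turned to -0.15 (SE 0.15, adjusted p 0.705 in edgeR's test).

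Kcnq1, the host of Kcnq1ot1, had a mean of 22.6 CPM ± 6.87 (SD, n = 3) in the controls and of 23.3 CPM ± 1.36 in the knockouts. Cdkn1c, which encodes a cyclin-dependent kinase inhibitor and is a target of Kcnq1ot1 silencing, had 6, 3 and 3 counts in the controls and 32, 19 and 41 in the knockouts. It was not called without the block (log2 fold change 2.52, SE 0.56, adjusted p 0.0755 in edgeR's test) and was called higher with it (2.51, adjusted p 0.0296). DESeq2, fitted without the block, called Cdkn1c higher (2.53, adjusted p 0.0366). With sex as a covariate its log2 fold change was 2.12. H19 (ENSMUSG00000000031) had 7, 5 and 6 counts in the controls and 19, 7 and 19 in the knockouts, under the filter, so it has no test here; without the filter its log2 fold change was 0.91 (edgeR's adjusted p 0.711). Another 40 reads over H19 were shared with a gene on the opposite strand, with the largest number, 14, in control replicate 3. Its neighbour Igf2, a fetal growth factor, had no counts in control and at most 2 in any knockout library. Of the 16 genes of the 3 domains outside the members 10 were tested, with a median log2 fold change of 0.37. In edgeR's test 1 was called without the block (Rian) and 2 with it (Rian and Cdkn1c), all higher. Among 14 tested imprinted genes of other domains 13 had log2 fold changes above 0, with a similar median of 0.40. None of them was called by edgeR without the block, and Peg3, a zinc finger gene, was called higher with it (log2 fold change 0.89, adjusted p 0.0121 in edgeR's test). DESeq2, fitted without the block, called Peg3 higher (0.85, adjusted p 0.0154). With sex as a covariate its log2 fold change was 0.48. Peg3 averaged 8.19 CPM ± 2.25 in control and 15.0 CPM ± 2.44 in knockout.

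**Figure D3:**
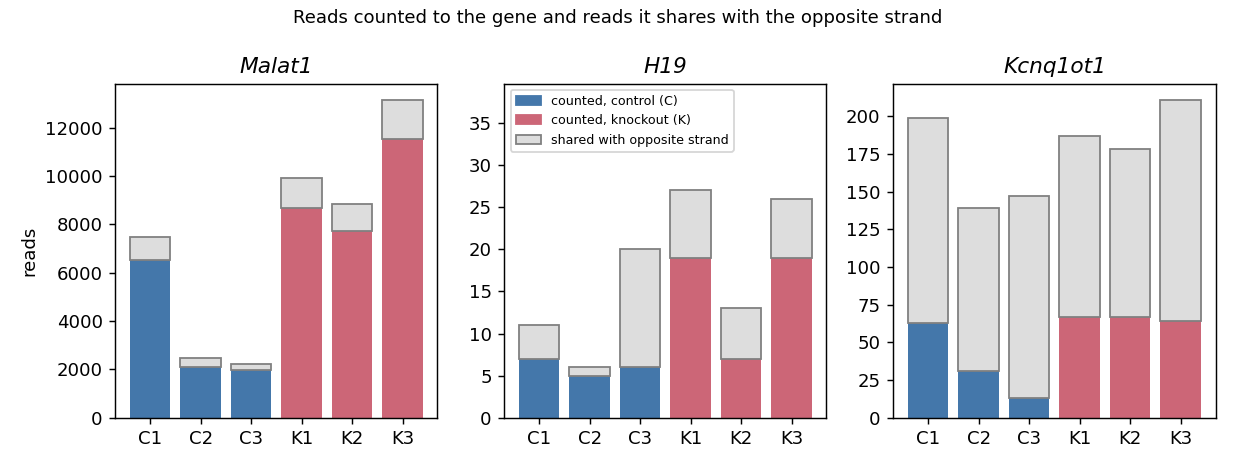
Reads counted to Malat1, H19 and Kcnq1ot1 (coloured bars) and reads shared with a gene on the opposite strand and counted to neither (grey, stacked on top) in control replicates 1 to 3 (C1 to C3) and knockout replicates 1 to 3 (K1 to K3); vertical axes are linear and start at 0. The shared reads are 12.7% of all reads on Malat1 and 71.3% on Kcnq1ot1.

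Among the snoRNA hosts, Gas5 (ENSMUSG00000053332, chromosome 1), a host of many snoRNAs that accumulates in growth-arrested cells, was the most abundant by counts. It stood at 13.9, 11.4 and 17.9 CPM in the controls and at 24.4, 27.7 and 24.7 CPM in the knockouts. All 3 knockout libraries lay above all 3 controls, with means of 14.4 CPM ± 3.26 (SD, n = 3) and 25.6 CPM ± 1.82. The log2 fold change was 0.83 (SE 0.17), and its adjusted p of 0.0663 in edgeR's test missed the threshold. With the replicate block Gas5 was called, with a log2 fold change of 0.85 and an adjusted p of 0.0127. Gas5 was also called by DESeq2 (0.80, adjusted p 0.00392), and with sex as a covariate its log2 fold change was 0.88 with an adjusted p of 0.302.

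Snhg8 (ENSMUSG00000104960), which hosts Snora24, stood at 1.29, 1.11 and 2.11 CPM in the controls and at 2.84, 3.71 and 3.08 CPM in the knockouts. The groups did not overlap. The fit gave a log2 fold change of 1.09 (SE 0.30; edgeR's adjusted p 0.133), and with the block it was called higher at 1.12 with an adjusted p of 0.0442. Snhg12 (ENSMUSG00000086290), which hosts Snora16a, Snora44, Snora61 and Snord99, had narrow groups in both genotypes: 1.95, 1.89 and 1.78 CPM in the controls and 2.73, 2.74 and 2.76 CPM in the knockouts. They did not overlap either, but the log2 fold change of 0.55 (SE 0.23) had an adjusted p of 0.272 without the block and 0.211 with it in edgeR's test. These 2 genes rest on 27 to 130 counts per library.

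Snhg1 and Epb41l4aos showed no separation. Snhg1 (ENSMUSG00000108414), a host with 8 snoRNA models inside it, stood at 3.53, 4.27 and 7.12 CPM in the controls and at 5.31, 5.60 and 4.88 CPM in the knockouts. Control replicate 3 was the highest of the 6 libraries of Snhg1 and control replicate 1 the lowest, and the log2 fold change was 0.082 (SE 0.25, adjusted p 0.918 in edgeR's test). Epb41l4aos, a host gene on the opposite strand next to the cytoskeletal gene Epb41l4a, stood at 1.26, 1.56 and 3.16 CPM in the controls and at 2.52, 2.43 and 2.33 CPM in the knockouts, again with control replicate 3 highest. Its log2 fold change was 0.28 (SE 0.36, adjusted p 0.765 in edgeR's test). In Gas5, Snhg1, Snhg8 and Epb41l4aos control replicate 3 was the highest of the controls, whereas in Snhg12 it was the lowest. The snoRNAs themselves were not measured: over all the snoRNA models inside the 5 hosts, the highest count in any library was 1. That number does not show their absence. In the GRCm38 annotation these models share bases with host exons on the same strand, except in Epb41l4aos. Reads over shared bases are counted to neither gene, so the host counts lack them too. Snora24 alone covers 15.2% of the Snhg8 exons.

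Related genes were read from lists. Of 13 tested other non-coding snoRNA hosts 12 had log2 fold changes above 0, with a median of 0.30; Rian, counted here too, was called without the block and Zfas1 was called higher with it. Zfas1 stood at 2.49, 2.51 and 4.76 CPM in the controls and at 7.40, 6.28 and 6.46 CPM in the knockouts (log2 fold change 1.05, adjusted p 0.107 without the block and 0.0195 with it in edgeR's test). DESeq2, fitted without the block, called Zfas1 higher (1.02, adjusted p 0.0329). With sex as a covariate its log2 fold change was 1.43. Of the 15 proteins that assemble snoRNPs, the particles the snoRNAs work in, none was called with or without the block, and 3 of 15 had log2 fold changes above 0, with a median of -0.29. None of 16 translation genes whose transcripts begin with a pyrimidine tract was called either, with a median of -0.11. The 15 factors of nonsense-mediated decay, the pathway that degrades spliced Gas5 and Snhg1, had a median of 0.084 and no call in either fit. Scaled by library totals, the median of all tested genes moved from 0.022 to 0.43, and the medians of the snoRNP and translation lists turned to 0.12 and 0.32, still below that of all genes. Of 10 tested other long non-coding RNAs none was called in either fit, and their median was 0.052.

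Malat1 (ENSMUSG00000092341, chromosome 19) was the most abundant of the 10 by length-scaled level and, over all libraries, held 8.14% of the counts on long non-coding genes, the second highest of 3657 such genes with any count. It stood at 205, 85.6 and 72.0 CPM in the controls and at 232, 220 and 310 CPM in the knockouts. Every knockout library lay above every control, but control replicate 1 stood far above the other controls and close under the knockouts. The means were 121 CPM ± 73.4 (SD, n = 3) and 254 CPM ± 48.6, and the log2 fold change of 1.07 (SE 0.41) had an adjusted p of 0.267 in edgeR's test and 0.141 with the block. Without control replicate 1 the log2 fold change was 1.66 and Malat1 was called (adjusted p 0.00628), and with sex as a covariate it was 0.31 (adjusted p 0.698). Control replicate 1 was also the 1 male control and had the highest stromal and leukocyte marker sums of the controls, and the part of sex or other cells in the Malat1 values was not tested.

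Neat1 (ENSMUSG00000092274, chromosome 19) did not separate the groups. It stood at 93.1, 194 and 97.5 CPM in the controls and at 114, 285 and 93.8 CPM in the knockouts. Replicate 2 was far above the others in both groups, and knockout replicate 3 lay among the controls. The log2 fold change was 0.36 (SE 0.52, adjusted p 0.810 in edgeR's test), and it turned to -0.31 without knockout replicate 2. With the replicate block it was 0.26 (SE 0.16; edgeR's adjusted p 0.378). Although the 2 genes are neighbours, their orders differed: control replicate 1 was the highest control for Malat1 and the lowest for Neat1.

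The protein partners of these nuclear RNAs were read next. None of 15 paraspeckle proteins was called without the block; with it the calls included Hnrnph3, an RNA-binding protein, as higher (log2 fold change 0.71, edgeR's adjusted p 0.0319). The list had a median of 0.32, with 11 of 15 above 0. Of 15 nuclear speckle proteins none was called without the block and 1 with it, Pnn (0.56, adjusted p 0.0486), and the median was 0.058.

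**Figure D4:**
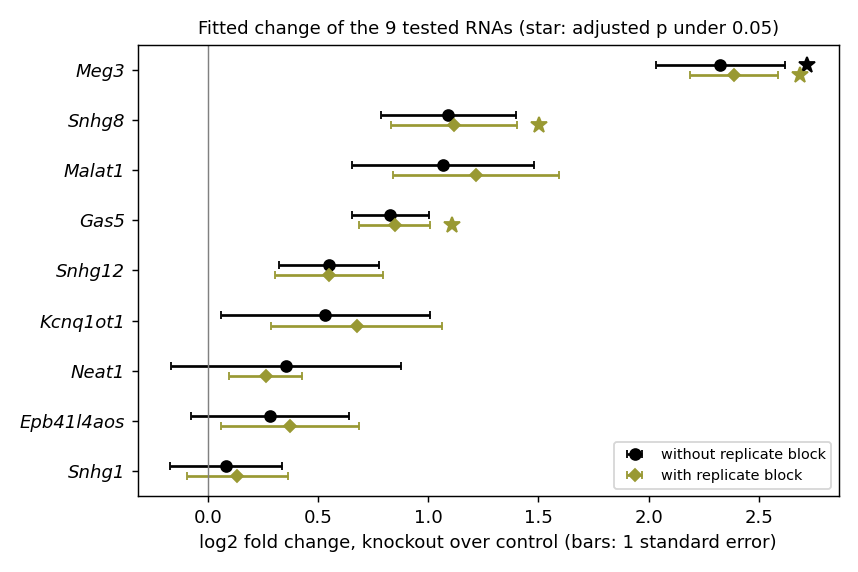
Fitted log2 fold change of knockout over control (horizontal axis) with 1 standard error for the 9 tested RNAs, without (black circles) and with (olive diamonds) the replicate block; a star marks an adjusted p under 0.05. Meg3 is starred in both fits, at 2.32 and 2.39, and Gas5 and Snhg8 are starred with the block.

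Taking the RNAs as a set, their summed share of gene counts was 0.0331%, 0.0238% and 0.0165% in the controls and 0.0475%, 0.0626% and 0.0527% in the knockouts. The mean share went from 0.0245% ± 0.00834 (SD, n = 3) to 0.0543% ± 0.00765 (exact permutation test, two-sided, p = 0.1, the smallest possible). Malat1 and Neat1 made up most of it. The other 8 RNAs went from 0.00248% ± 0.000559 to 0.00614% ± 0.000206, with no overlap. The 20 genes that each held over 1% of a library took 80.7% ± 1.63 of gene counts in control and 76.4% ± 0.658 in knockout. Set against the remaining genes, the share of the 10 RNAs was 0.126% ± 0.0352 and 0.231% ± 0.0370. Of all long non-coding genes, 370 of 517 tested (71.6%) had log2 fold changes above 0, with a median of 0.30, 4 were called higher and 2 lower, and with the block 24 higher and 5 lower. Their share of gene counts was 0.189% ± 0.0178 in control and 0.307% ± 0.0167 in knockout (exact permutation test, two-sided, p = 0.1). This share and the share of reads outside genes both separated the 3 knockouts, above, from the 3 controls, and what links them was not tested.

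By level per kilobase of exon, which allows genes to be compared, the 10 RNAs were far from uniformly abundant. Malat1 had 17.3 CPM per kb ± 10.5 (SD, n = 3) in control and 36.4 ± 6.96 in knockout, and its mean over all libraries lay above 97.5% of tested genes. In control Neat1 (6.17 CPM per kb ± 2.75), Epb41l4aos (4.64 ± 2.38) and Gas5 (3.83 ± 0.868) followed and did not differ from each other beyond their spread. In knockout their means were 7.90, 5.64 and 6.81 CPM per kb. Snhg8 (1.76 ± 0.624 in control and 3.77 ± 0.526 in knockout) and Snhg1 (1.68 ± 0.639 and 1.77 ± 0.121) came next, alike in control within their spread, and then Snhg12 (0.780 and 1.14). Meg3 stood at 0.127 CPM per kb ± 0.0588 in control and 0.645 ± 0.0746 in knockout. Its mean over all 6 libraries, which pools these unlike groups and is no rank within either, lay above 24.4% of tested genes. H19 had 0.0873 and 0.165 CPM per kb, and Kcnq1ot1, spread over 93092 annotated exonic bases, had 0.0134 and 0.0194. Malat1 and Neat1 ranked 2 and 3 by counts among long non-coding genes, Gas5 was number 13 and Meg3 number 33, while H19 was number 487. The exonic lengths pool all annotated isoforms, so levels of genes with long unused exons are understated.

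The genes most like 3 of the RNAs over the 6 libraries were found by Pearson's r of log2 CPM among 12628 tested protein-coding and long non-coding genes, as a description. For Malat1 they were Atf7 (0.990), Eef1akmt2 (0.990) and Igsf9 (0.987), for Meg3 Akr1c19 (0.996), Usp48 (0.995) and Tex9 (0.994), and for Gas5 Catsperd (0.996), Ppfia1 (0.994) and Snhg8 (0.993). With 6 libraries many genes reach such values: 357 had an r over 0.9 with Malat1, 436 with Meg3 and 230 with Gas5. None of the 9 was called without the block. Akr1c19, an aldo-keto reductase, stood at 0.945, 0.575 and 0.509 CPM in the controls and at 2.49, 2.00 and 2.23 CPM in the knockouts. Like Meg3, it was highest in replicate 1 within each group, a likeness that its choice by correlation with Meg3 favours.

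**Figure D5:**
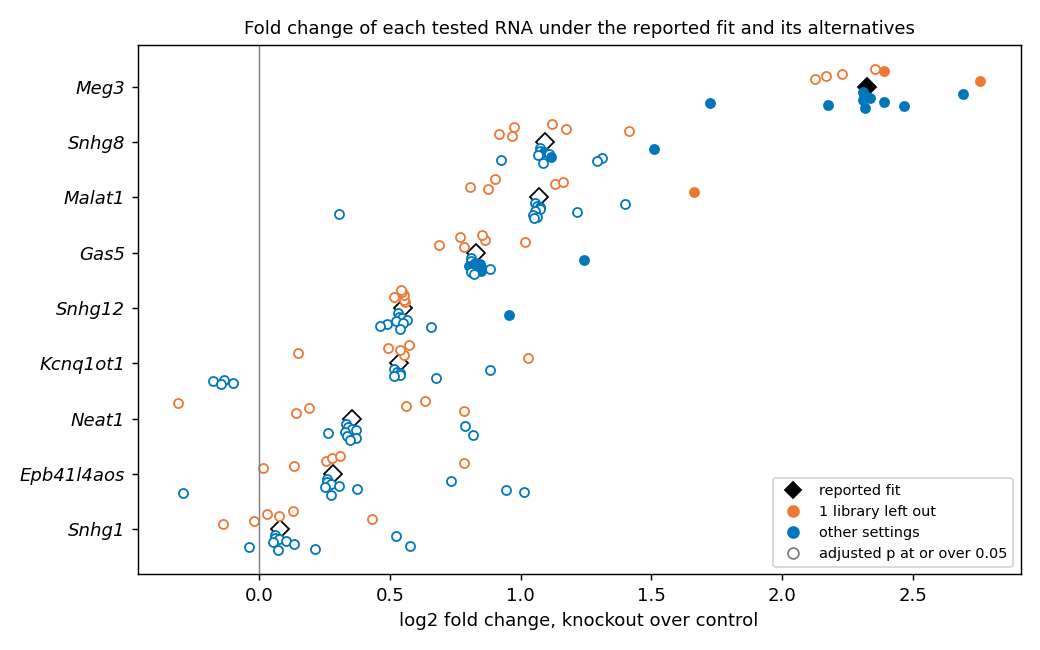
Log2 fold change of each tested RNA (horizontal axis) in the reported fit (black diamonds), in the 6 fits that each left out 1 library (orange) and under 11 other settings (blue); filled symbols have an adjusted p under 0.05. All values for Meg3, Snhg8, Malat1, Gas5 and Snhg12 lie above 0, while Kcnq1ot1, Neat1, Epb41l4aos and Snhg1 have values on both sides.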

How the data were processed

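Per the labels' protocols, messenger RNA was purified with poly-T beads and made into libraries for Illumina sequencing. Per the submitters' processing notes, STAR 2.7.10a and the builds GRCm39 and mm39 were used. The deposited files hold the authors' raw read counts per gene, unstranded and for each strand. Unstranded counts were used, and 4 rows of reads outside genes were left out of library sizes. Names, chromosomes, exonic lengths and overlaps between gene models came from GENCODE M21 (GRCm38), which named 94.1% of identifiers; its build differs from that of the counts, so overlaps may differ there and no start or end positions are given from it. Counts were fitted with edgeR 4.0.16 (filterByExpr, TMM, robust quasi-likelihood test, Benjamini-Hochberg), tested first on simulated data. Same-numbered control and knockout libraries deviated together (Pearson's r over genes 0.630, 0.455 and 0.285), so the numbers were taken to pair the preparations, which the labels do not state. The correlation set as enough for pairing was 0.1. Control replicate 3 and knockout replicate 2, unlike in number, had an r of 0.210, which also lies above it. Calls made only with the block rest on this assumed pairing. By Xist and Y-linked counts, pairs 2 and 3 join a female control with a male knockout. The alternatives were DESeq2 1.42.0, other scalings and filters, the strand columns, sex, the replicate block and leaving out each library. The sum of both strand columns was added after seeing the data. The members and lists were chosen with earlier results of these data known. Named were the 10 RNAs, Trip12, list genes called with or without the block (some are not reported here), and the 3 genes most correlated with the most abundant tested RNA of each kind. The uncalled genes of the imprinted domains were named after their values were seen. No 2 libraries were alike within sampling noise: the closest pair differed by a chi-square per degree of freedom of 29.0.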

Additional observations from a re-analysis of the deposited data

Results flagged for a closer look

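Reads on Malat1 that were shared with a gene on the opposite strand belong to no unstranded count. They came to 30.0, 16.1 and 8.18 CPM in control replicates 1 to 3 and to 33.8, 32.6 and 43.4 CPM in knockout replicates 1 to 3. The knockout mean was 36.6 CPM and the control mean 18.1 CPM, and the lowest knockout lay above the highest control. These reads were 12.9% of all reads on Malat1 in control and 12.6% in knockout, so their difference repeats that of Malat1 itself. In the GRCm38 annotation the gene model Gm37376 lies on the opposite strand over 453 bases (6.49%) of the Malat1 exons, and it had no unstranded count in any library. With these reads kept, the log2 fold change of Malat1 was 1.05 (adjusted p 0.279 in edgeR's test), against 1.07 without them.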

How the results depend on the processing

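The count of genes called was 124 as reported, 1519 with library totals (94.9% higher, against 49.2%), 850 without the filter, 210 with a minimum of 10 counts per library, 530 with DESeq2, 785 with the replicate block, 21 with the sex covariate and 20 to 461 when 1 library was left out. Of the 10 RNAs, 1 was called as reported, 4 with library totals and 4 without the filter, 2 with at least 10 counts, 2 with DESeq2, 2 on first-strand counts, 3 with the replicate block and 0 to 2 when 1 library was left out. Their median log2 fold change was 0.55, and moved to 0.96 with library totals, 0.82 with the sex covariate and 0.85 on first-strand counts; without 1 library it was 0.55 to 0.78. The difference in their summed share of counts was 0.0298 percentage points, 0.105 when genes over 1% were left out of the total, 0.00366 without Malat1 and Neat1, and 0.0257 to 0.0341 without 1 library. The sign turned for Neat1 without knockout replicate 2 (-0.31); for Kcnq1ot1 with the sex covariate (-0.13), on first-strand (-0.18), second-strand (-0.099) and both strands' counts (-0.15); for Snhg1 on first-strand counts (-0.038), without control replicate 1 (-0.14) and without control replicate 2 (-0.019), with a highest value of 0.43 without control replicate 3; for Epb41l4aos on second-strand counts (-0.29); and for Fabp4 without knockout replicate 1 (-0.041, against 1.39 without control replicate 1). The causes were not tested. The replicate block changed no call of the 10 RNAs other than those of Gas5 and Snhg8. Snhg8, Snhg12, Epb41l4aos and Kcnq1ot1 had 13 to 130 counts in a library, and H19 at most 19, which limits their precision.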
